A study of Homo sapiens with 101 samples.

Results

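The amino acid response genes of ATF4 are a set of 36 genes: ATF4 itself, 5 other transcription factors of the same response, and genes for stress effectors, amino acid enzymes, amino acid transporters and tRNA synthetases. They were chosen by name. A probe set belonged to the set when its platform symbol, or an older alias (WARS, GARS, SARS, AARS), named a member, and the probe set with the highest mean over all arrays stood for its gene. By this rule 35 of the 36 were measured, of 19775 genes in all. For GPT2 no probe set named it alone, and it is not analysed here. The cells were 2 established human colon carcinoma lines of common origin: SW480, derived from a primary tumour, and SW620, derived from a metastasis. Each line received a short hairpin RNA against CDK5, HRAS, MAP2K1, MAP2K2, MAPK3 or NGFR, and the stated use of the data was to check a computed gene network. CDK5 is a cyclin-dependent kinase, HRAS a RAS GTPase, MAP2K1 and MAP2K2 are the kinases MEK1 and MEK2, MAPK3 is their substrate ERK1, and NGFR is the neurotrophin receptor p75. Total RNA was hybridised to Affymetrix arrays, 101 in all. Each of the 9 treatments had 6 arrays per line, apart from the CDK5 knockdown in SW620, with 5 and no replicate 1, and non-transduced cells, with 3 per line.

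The controls were cells with the empty pLKO vector, cells with a non-target hairpin, which the labels place in pLKO too, and non-transduced cells. The first 2 groups are called the vector controls, with 12 arrays per line. The labels give no promoter for the hairpins and no time after transduction. They give 1 hairpin code for each knockdown other than HRAS, for which replicate 1 has code B3, replicates 3 to 6 have code A1 and replicate 2 has none. An effect of a hairpin on other genes therefore cannot be told apart from that of its target in these 5 knockdowns. The sample names fall into rounds: replicate 1, replicate 2 and replicates 3 to 6. Nothing in the labels says if replicates 3 to 6 came from separate cultures. If they did not, p-values measure in part a technical spread and are too small. Levels are log2 expression. A change is the log2 difference from the mean of both vector controls of the same line, fitted with a term for the round, ± its standard error. A gene rose or fell where limma's adjusted p, taken over all 19775 genes, was under 0.05, and is then said to be called. In bulk RNA, fewer cells that express a gene and less RNA per cell cannot be told apart.

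ATF4 is a bZIP transcription factor whose protein is made mainly when the translation factor eIF2 is phosphorylated, by GCN2 in amino acid shortage, by PERK in endoplasmic reticulum stress, or by the related kinases PKR and HRI. Together with C/EBP partners it binds a composite element, the C/EBP-ATF response element, and raises genes that make, import and charge amino acids, along with genes such as DDIT3 and TRIB3 that limit the response. Since its control lies mostly in translation, its mRNA is a poor measure of its activity.

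The core of that element was searched in promoters because the members' values are read below beside it. The letters TGATGNAA, on either strand, were looked for in the 250 bases before each start in the RefSeq promoter table (GRCh38.p14), which held 29 of the 36 members. They were in 6 of these 29 (20.7%), against 3.89% of the 27305 genes of the table. A gene counted if any of its starts had a match. Counted by start, 6 of the members' 49 starts had a match, against 3.14% of the 35116 starts of the table. A match is a description of letters and not a site of binding. The 3 stretches that follow are shown whole because 1 belongs to the best-known target of the response, ASNS, and the others to CHAC1 and AARS1. They lie at chr7:97872409-97872658, minus strand, at chr15:40953221-40953470, plus strand and at chr16:70289507-70289756, minus strand, and are printed 5′ to 3′ along the gene with the match in capitals. In ASNS the core stands on the gene's own strand, in CHAC1 and AARS1 on the opposite one.
ASNS: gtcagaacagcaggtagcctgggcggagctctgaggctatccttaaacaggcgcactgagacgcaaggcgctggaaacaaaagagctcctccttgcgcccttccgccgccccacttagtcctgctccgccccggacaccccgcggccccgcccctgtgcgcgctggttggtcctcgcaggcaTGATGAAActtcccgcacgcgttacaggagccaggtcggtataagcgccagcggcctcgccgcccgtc
CHAC1: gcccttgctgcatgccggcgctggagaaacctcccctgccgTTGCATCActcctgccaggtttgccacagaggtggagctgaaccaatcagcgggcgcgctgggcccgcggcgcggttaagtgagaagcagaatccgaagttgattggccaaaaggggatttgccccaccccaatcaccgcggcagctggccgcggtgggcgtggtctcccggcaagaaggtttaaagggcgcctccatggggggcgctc
AARS1: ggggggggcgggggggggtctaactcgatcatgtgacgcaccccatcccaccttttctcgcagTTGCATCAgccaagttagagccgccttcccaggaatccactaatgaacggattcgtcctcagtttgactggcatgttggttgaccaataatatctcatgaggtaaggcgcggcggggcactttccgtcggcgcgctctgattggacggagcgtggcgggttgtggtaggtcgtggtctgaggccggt

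The match of the other 3 is shown in a window of 30 bases, at chr19:33374060-33374089, plus strand, at chr7:30594834-30594863, plus strand and at chr19:46784893-46784922, minus strand. In CEBPG and SLC1A5 it stands on the gene's strand, in GARS1 on the opposite strand.
CEBPG: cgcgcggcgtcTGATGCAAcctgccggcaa
GARS1: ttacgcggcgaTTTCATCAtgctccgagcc
SLC1A5: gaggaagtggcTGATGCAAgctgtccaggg

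The 6 genes with a match did not move alike. In SW620, ASNS, CHAC1, CEBPG and GARS1 fell in all 6 knockdowns and AARS1 in 4, while SLC1A5 fell in 2. Members without a match in this window, DDIT4 and ASS1 among them, are among those with the largest changes.

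The targeted genes were lower in their own knockdown in both lines, from -3.43 (NGFR in SW480) to -0.32 (MAPK3 in SW480), and passed the test other than NGFR in SW620 (-0.52 ± 0.26, adjusted p = 0.136). Array medians lay between 5.05 and 5.28. The epithelial genes EPCAM, KRT8 and KRT18 had medians of 11.64, 11.99 and 13.58, VIL1 8.63, CDH1 8.11 and CDX2 6.62. The medians of the fibroblast, leukocyte and endothelial genes looked at ran from 3.88 (PTPRC) to 7.00 (COL1A1). CDX2 therefore did not lie above all of them. LGALS4, an intestinal marker also listed as epithelial, was low at 4.12. Of the 101 arrays, 6 stand apart. On 3 SW620 arrays the GAPDH 3′ probe set exceeded the 5′ one by 2.95 to 6.04, a sign of degraded RNA (MAP2K1 and MAPK3 replicate 2, NGFR replicate 1), against at most 1.47 on the others. That 1.47 was on HRAS replicate 4 in SW480. HRAS replicate 3 in SW480 had 1.39, and replicates 5 and 6 of that group had 0.41 and 0.32. On 3 SW480 arrays of replicate 1 (MAP2K1, MAP2K2, MAPK3), genes that separate the lines lay 0.41 to 0.64 of the way to SW620, against at most 0.237 on other SW480 arrays. Their part in the results was tested only by leaving them out.

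In SW620, most amino acid response genes were lower in every knockdown than in the vector controls. Summed over the 6 knockdowns, 164 of 210 results for a member fell and 2 rose, where 13.6% of all results over all genes fell and 12% rose. After the NGFR hairpin 29 of 35 members fell and 0 rose, with a median change of -1.22, where 13.4% of all genes fell and 12.9% rose. After the HRAS knockdown 28 fell and 1, ATF5, rose (median -0.74), against 16.8% and 14.2% of all genes. The counts were 27 and 0 for CDK5 (median -0.84; 13.4% of all genes fell and 10.6% rose). For MAP2K2 they were 27 and 0 (median -0.85, with 12.7% and 10.5% of all genes). For MAP2K1 27 fell and 1, ALDH18A1, rose (median -0.77, with 9.28% and 9.77% of all genes). For MAPK3 26 fell and 0 rose (median -0.76, with 15.9% and 13.9% of all genes). The median change of all genes lay between -0.0092 and 0.013 in these comparisons. The share of members that fell lies well above that of all genes in each. The 6 comparisons use the same 12 control arrays, so they are not independent of each other. Of the 35 members, 18 fell in all 6, 8 in 5, 6 in 2 to 4, and 3 (ATF5, ALDH1L2 and ALDH18A1) in none. No share of all genes is given beside these tallies over knockdowns.

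**Figure D1:**
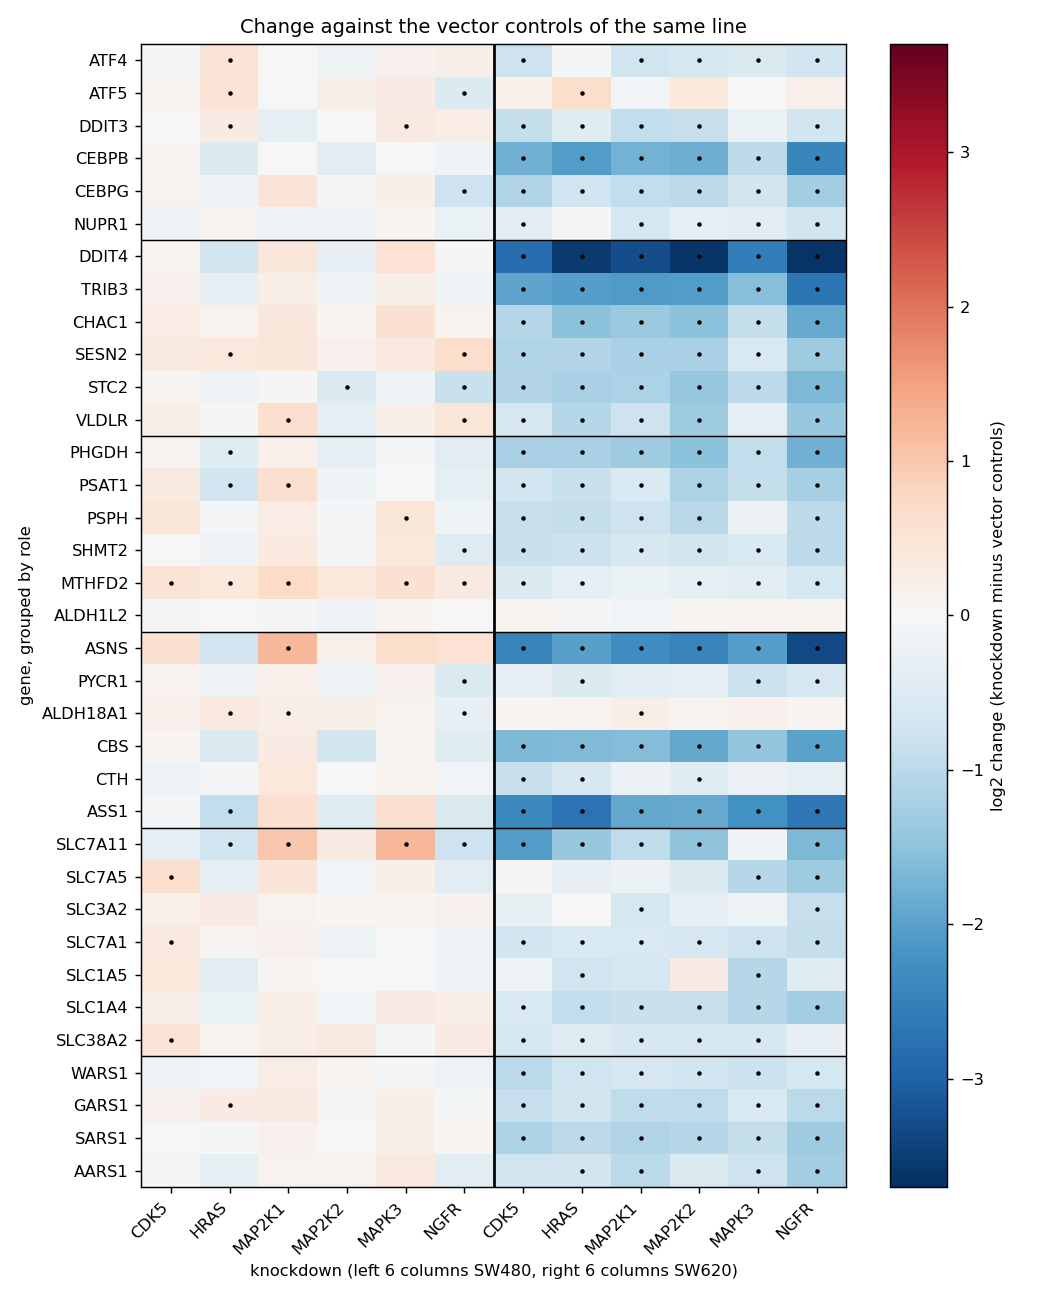
Change of each of the 35 genes (vertical axis, grouped by role) in the 6 knockdowns of SW480 (left) and SW620 (right), as log2 differences from the vector controls of the same line; blue is lower, red is higher, and a dot marks an adjusted p under 0.05. The SW620 columns are blue for most genes, with 164 falls and 2 rises, while the SW480 columns hold 12 falls and 24 rises. Over all genes, 13.6% of results fell and 12% rose in SW620, and 7.32% fell and 6.11% rose in SW480.

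Among the transcription factors, CEBPB and CEBPG fell in all 6 SW620 knockdowns. CEBPB, which encodes a C/EBP factor of differentiation and inflammation, lay between 11.04 and 11.81 (median 11.38) on the 12 vector control arrays, between 8.59 and 9.09 (median 8.99) after the NGFR hairpin and between 9.94 and 11.49 (median 10.13) after the MAPK3 knockdown. The NGFR arrays lie below every control, whereas the highest MAPK3 array reaches into the control range. Its changes ran from -0.97 ± 0.21 with MAPK3 to -2.41 ± 0.21 (adjusted p = 2.41e-15) with NGFR. CEBPG, the dimer partner of ATF4 on many target promoters, lay between 8.93 and 10.25 (median 9.46) in the controls and between 7.19 and 8.69 (median 8.63) with NGFR, where all arrays lie below the controls. Its changes ran from -0.68 to -1.28 ± 0.16. The other probe set of CEBPG (mean 8.03) fell in 5 and was at -0.055 with MAPK3, so the MAPK3 fall depends on the probe set. DDIT3 (CHOP), a C/EBP factor tied to stress-induced death, lay between 8.62 and 9.59 (median 8.95) in the controls and between 7.87 and 8.18 (median 7.997) with MAP2K1, where its change was largest (-0.92 ± 0.11). All 6 of these arrays lie below the controls. It fell in 5 knockdowns and did not pass with MAPK3 (-0.24 ± 0.11, adjusted p = 0.105). ATF4 mRNA lay between 11.97 and 12.46 (median 12.34) in the controls, at 11.05, 11.62, 11.68, 11.64 and 11.67 with CDK5 and between 11.79 and 12.41 (median 12.38) with HRAS. All 5 CDK5 arrays lie below the controls, and the HRAS arrays overlap them. The fall was -0.76 ± 0.13 (adjusted p = 1.64e-06) with CDK5 and between -0.53 and -0.73 in 4 other knockdowns, and the HRAS value was -0.084 ± 0.12 (adjusted p = 0.638). In size these falls are smaller than those of ASNS, DDIT4 or TRIB3 in the same knockdowns. NUPR1, a small stress-induced chromatin protein at a low level here (mean 5.47), fell in 5, from -0.35 to -0.68, and was -0.049 ± 0.11 with HRAS. ATF5, a relative of ATF4 that is also controlled in translation, fell in none and rose with HRAS (0.65 ± 0.16). Its other probe sets were at 0.50, -0.074 and -0.11 with HRAS, so its direction depends on the probe set. As a group the 6 factors gave 27 falls and 1 rise in 36 results.

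The stress effectors moved most uniformly, with 35 falls and 0 rises in 36 results. DDIT4 (REDD1), which restrains mTORC1, had the largest change of any member in every SW620 knockdown, and its values are given for that reason, after they were seen. It lay between 11.15 and 12.37 (median 11.88) on the vector control arrays, between 7.18 and 8.48 (median 8.44) with NGFR, between 7.98 and 8.42 (median 8.22) with HRAS and at 7.44, 9.07, 9.23, 9.08 and 9.19 with CDK5. All arrays of these 3 knockdowns lie below all controls by more than 1 unit. It lay between 7.49 and 10.19 (median 7.69) with MAP2K2, between 7.73 and 11.27 (median 7.97) with MAP2K1 and between 6.43 and 11.55 (median 9.31) with MAPK3. In the last 2 groups the highest array, that of replicate 1, reaches the controls. The changes ran from -2.57 ± 0.39 with MAPK3 to -3.64 ± 0.39 (adjusted p = 9.46e-12) with NGFR, which leaves 8.02% of the control level. TRIB3, a pseudokinase that binds ATF4 and AKT, lay between 11.43 and 11.997 (median 11.68) in the controls and between 8.59 and 9.67 (median 8.63) with NGFR, again without overlap. Its changes ran from -1.57 ± 0.23 to -2.71 ± 0.23. STC2, a secreted stanniocalcin, lay between 8.91 and 9.59 (median 9.18) in the controls, between 6.68 and 7.90 (median 7.79) with NGFR and between 7.995 and 8.36 (median 8.23) with MAPK3, and in all 6 knockdowns its arrays lie below all controls. Its changes ran from -0.96 ± 0.16 to -1.68 ± 0.16. SESN2, a sestrin that senses leucine for mTORC1, lay between 6.85 and 8.69 (median 7.57) in the controls and between 5.98 and 6.93 (median 6.19) with NGFR, so that the highest knockdown array reaches the lowest control. It fell in all 6, from -0.57 to -1.32. CHAC1, a glutathione-degrading enzyme, fell in all 6, from -0.89 ± 0.22 to -1.86 ± 0.22. VLDLR, a lipoprotein receptor, lay between 6.08 and 7.29 (median 7.13) in the controls and between 4.53 and 6.06 (median 5.76) with NGFR, just below the lowest control at its highest. It fell in 5, down to -1.41 ± 0.17, and was -0.33 ± 0.17 with MAPK3 (adjusted p = 0.144), the single stress effector result in SW620 that did not pass.

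**Figure D2:**
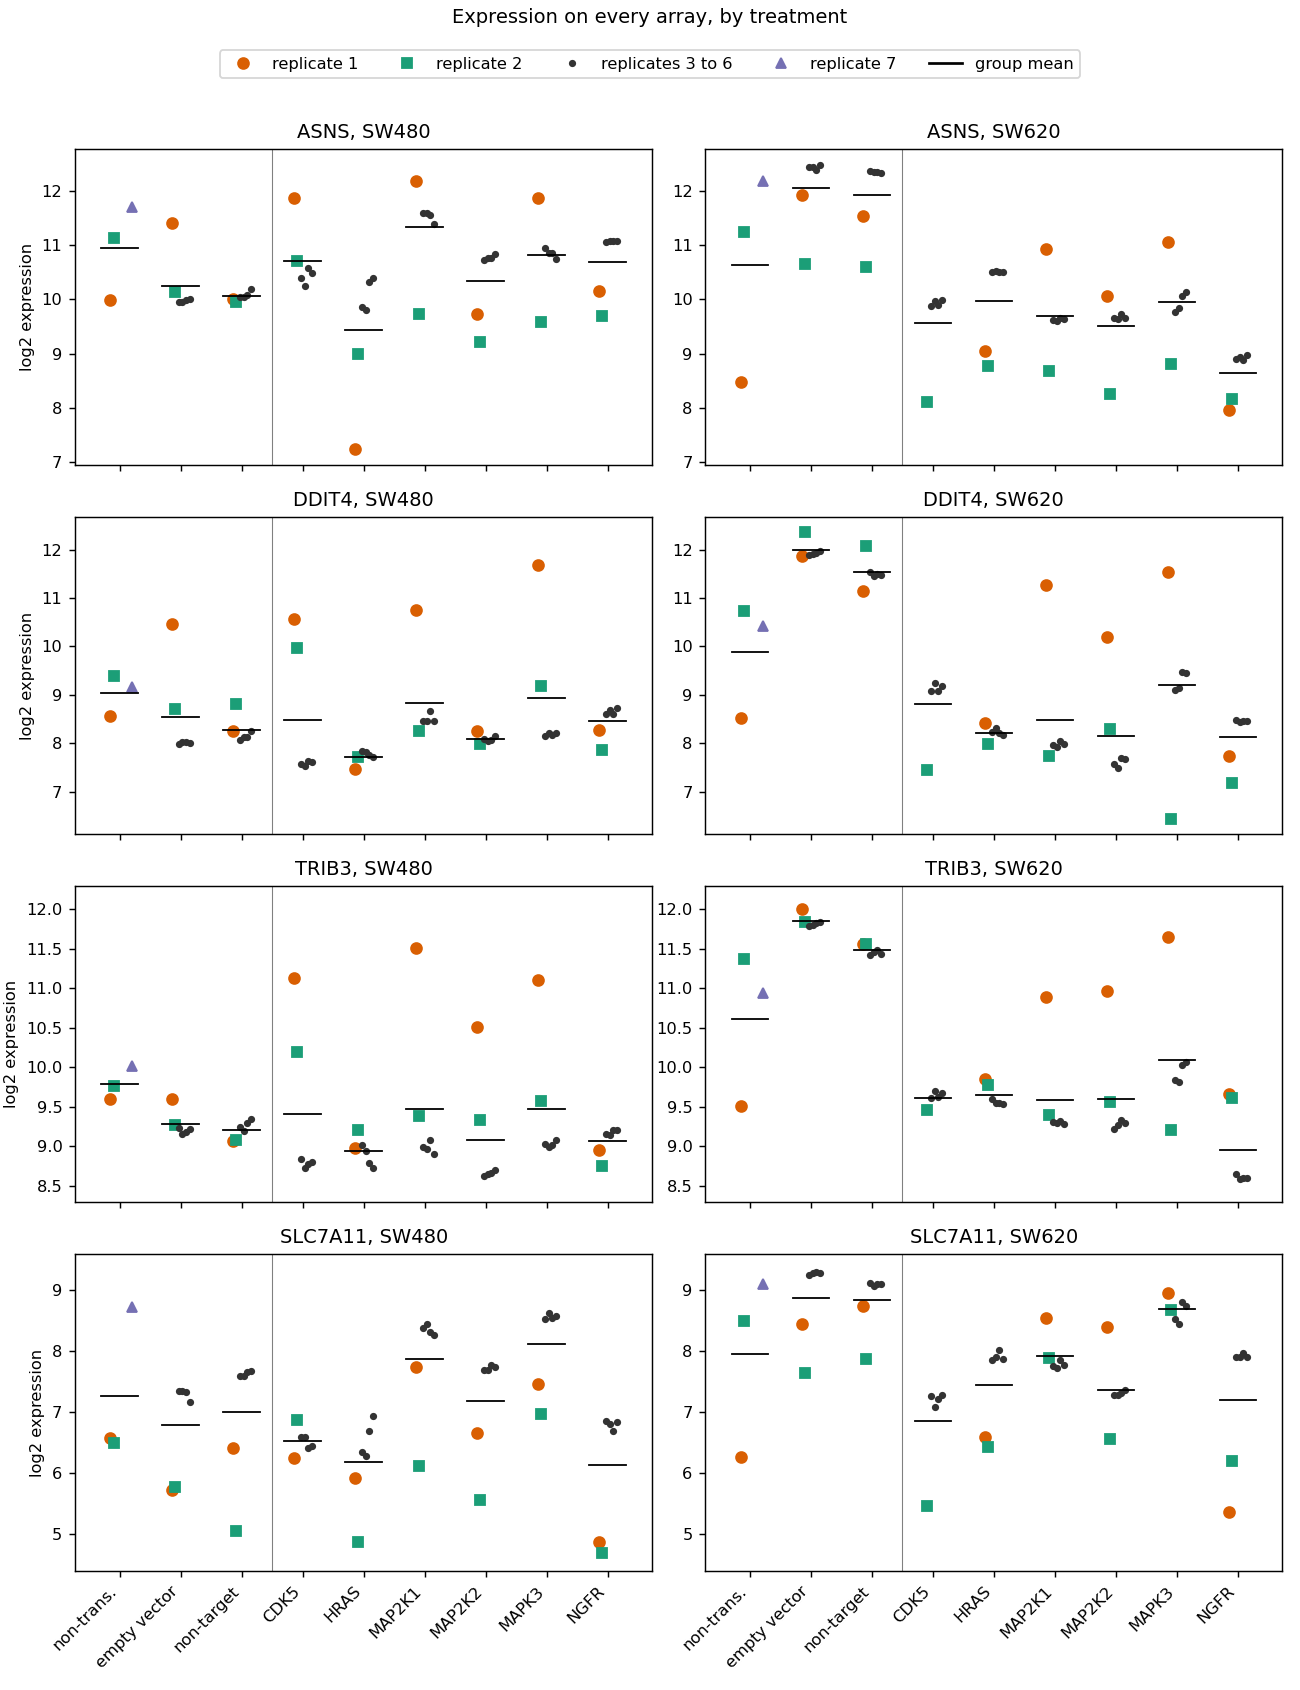
Log2 expression of ASNS, DDIT4, TRIB3 and SLC7A11 (rows) on every array of SW480 (left) and SW620 (right), by treatment; colours and symbols give the replicate and black bars the group means. In SW620 all arrays of the CDK5, HRAS, MAP2K2 and NGFR knockdowns lie below all vector control arrays for ASNS, DDIT4 and TRIB3, while for SLC7A11 only the CDK5 arrays do. The replicate 1 arrays of MAP2K1 and MAPK3 lie highest in their groups for DDIT4 and ASNS, and replicates 3 to 6 nearly coincide.

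The enzymes of serine synthesis and its use in folate metabolism gave 28 falls and 0 rises in 36 results. PHGDH, the first enzyme of serine synthesis, lay between 9.31 and 10.03 (median 9.44) on the control arrays, between 7.58 and 7.97 (median 7.67) with NGFR and between 7.44 and 9.85 (median 8.59) with MAPK3. The NGFR arrays lie below all controls. It fell in all 6, from -0.91 ± 0.18 to -1.79 ± 0.18 (adjusted p = 3.79e-13). PSAT1, the transaminase of the next step, lay between 10.78 and 11.95 (median 11.85) in the controls and between 9.28 and 10.92 (median 10.87) with NGFR, with a small overlap, and fell in all 6, from -0.57 to -1.22 ± 0.16. PSPH, the phosphatase that completes the pathway, fell in 5, between -0.76 and -1.01, and was -0.21 ± 0.15 with MAPK3. Another probe set of PSPH (mean 8.30) fell in all 6 and was at -0.81 with MAPK3, and a dim one (mean 4.61) was at -0.14. The MAPK3 result of PSPH therefore depends on the probe set. SHMT2, the mitochondrial enzyme that splits serine into glycine and a folate unit, fell in all 6, from -0.57 to -0.98. MTHFD2, which oxidises that folate unit in mitochondria, lay between 11.33 and 11.98 (median 11.81) in the SW620 controls and between 10.57 and 11.39 (median 11.27) with NGFR, which overlap slightly. It fell in 5 knockdowns, down to -0.66 ± 0.12, and was -0.25 ± 0.12 with MAP2K1. ALDH1L2, a later enzyme of the same route, had a dim probe set (mean 4.34, higher than 18.6% of genes) and fell in none. A still dimmer probe set of this gene (mean 3.69) fell in all 6 with a mean change of -1.19, so its result depends on the probe set.

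Of the other amino acid enzymes, ASNS, ASS1 and CBS fell in all 6 SW620 knockdowns. ASNS, which makes asparagine from aspartate, lay between 10.60 and 12.47 (median 12.34) on the vector control arrays, between 7.97 and 8.97 (median 8.89) with NGFR, at 8.12, 9.87, 9.97, 9.89 and 9.99 with CDK5 and between 8.78 and 10.52 (median 10.50) with HRAS. Every array of these 3 knockdowns lies below every control, and the lowest controls are those of replicate 2. It lay between 8.68 and 10.94 (median 9.64) with MAP2K1, between 8.26 and 10.06 (median 9.66) with MAP2K2 and between 8.82 and 11.05 (median 9.95) with MAPK3. The MAP2K2 arrays lie below all controls too, and in the other 2 groups only the replicate 1 array reaches them. The changes ran from -2.01 ± 0.31 with HRAS to -3.34 ± 0.31 (adjusted p = 4.43e-14) with NGFR, a 10.2-fold difference. ASS1, the argininosuccinate synthase that lets cells make arginine, lay between 10.52 and 11.91 (median 10.63) in the controls, between 6.95 and 8.46 (median 8.38) with HRAS and between 8.56 and 10.38 (median 8.72) with MAP2K2, below all controls in both. Its changes ran from -1.85 ± 0.31 to -2.73 ± 0.31. CBS, which starts the transsulfuration of homocysteine to cysteine, lay between 7.39 and 9.57 (median 7.75) in the controls and between 5.78 and 6.29 (median 5.91) with NGFR, without overlap. It fell from -1.47 ± 0.27 to -1.98 ± 0.27. CTH, the next enzyme of transsulfuration, fell in 3 (CDK5 -0.84, HRAS -0.61, MAP2K2 -0.44), and its control arrays themselves spread between 4.79 and 7.48 (median 7.24). PYCR1, the last enzyme of proline synthesis, fell in 3, down to -0.81 ± 0.19 with MAPK3. ALDH18A1, which acts earlier in proline synthesis, fell in none and rose with MAP2K1 (0.23 ± 0.077). Its other probe set (mean 8.73) was at -0.016 there, so the rise of ALDH18A1 depends on the probe set. The 6 enzymes gave 24 falls and 1 rise in 36 results.

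The transporters gave 28 falls and 0 rises in 42 results, and differed among themselves. SLC7A11, the cystine importer xCT, lay between 7.65 and 9.30 (median 9.10) on the control arrays, at 5.46, 7.27, 7.08, 7.21 and 7.27 with CDK5 and between 8.45 and 8.97 (median 8.71) with MAPK3. The CDK5 arrays lie below all controls, and the MAPK3 arrays lie within the control range. Its change was -2.07 ± 0.27 (adjusted p = 4.14e-09) with CDK5, -1.65 ± 0.25 with NGFR and -0.16 ± 0.25 with MAPK3 (adjusted p = 0.683). SLC7A1, an importer of cationic amino acids, lay between 9.97 and 10.52 (median 10.31) in the controls and between 8.92 and 9.57 (median 9.51) with NGFR, without overlap. It fell in all 6, from -0.56 to -0.89 ± 0.12. SLC1A4, a carrier of small neutral amino acids, lay between 7.33 and 9.13 (median 7.64) in the controls and between 6.03 and 7.68 (median 6.23) with NGFR, overlapping, and fell in all 6, from -0.57 to -1.29 ± 0.11. SLC38A2 (SNAT2), an importer of neutral amino acids, fell in 5, between -0.48 and -0.65, and was -0.30 ± 0.13 with NGFR. Its other probe sets (means 11.27 and 11.20) were at -0.69 and -0.74 with NGFR, so the small NGFR value depends on the probe set. SLC7A5 (LAT1) and SLC3A2 form the leucine exchanger, and each fell in 2. SLC7A5 fell with NGFR (-1.32 ± 0.20) and MAPK3 (-1.05 ± 0.20), and SLC3A2 with NGFR (-0.86 ± 0.22) and MAP2K1 (-0.66 ± 0.22). SLC1A5 (ASCT2), a glutamine carrier, fell with MAPK3 (-1.06 ± 0.29) and HRAS (-0.74 ± 0.29). Its controls spread between 8.87 and 11.46 (median 9.06).

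The tRNA synthetases, which charge tRNAs with their amino acids, gave 22 falls and 0 rises in 24 results. SARS1 (serine) lay between 10.50 and 11.45 (median 11.04) on the control arrays, between 9.36 and 9.85 (median 9.75) with NGFR and between 9.16 and 11.39 (median 10.07) with MAPK3, where only the former group lies below all controls. Its changes ran from -0.89 ± 0.14 to -1.32 ± 0.14. GARS1 (glycine) lay between 11.39 and 12.20 (median 12.05) in the controls and between 10.09 and 11.36 (median 11.30) with NGFR, just without overlap, and its changes ran from -0.57 to -0.996 ± 0.12. WARS1 (tryptophan) lay between 9.36 and 10.31 (median 9.86) in the controls and at 8.65, 8.96, 9.02, 8.96 and 8.98 with CDK5, all 5 below the controls, and its changes ran from -0.63 to -0.99 ± 0.10. AARS1 (alanine) fell in 4, down to -1.28 ± 0.25, and missed the threshold with CDK5 (-0.67 ± 0.27, adjusted p = 0.0559) and MAP2K2 (-0.53 ± 0.25, adjusted p = 0.117).

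Leaving out the 3 SW620 arrays of degraded RNA kept all but 2 of the 166 SW620 calls but moved some MAPK3 and MAP2K1 values, knockdowns that hold 1 such array each. The median change of the members with MAPK3 went from -0.76 to -0.50, and to -0.48 without replicate 2 in all groups. With MAPK3, AARS1 went from -0.76 to -0.014 (adjusted p = 0.95), and its fall there rests on replicate 2. Smaller but still past the threshold were SLC1A5 (-0.33), SLC7A5 (-0.56), PYCR1 (-0.39), ATF4 (-0.31) and SHMT2 (-0.31). With MAP2K1, SLC3A2 went to -0.30, and ALDH18A1 to 0.11 (adjusted p = 0.281). With CDK5, VLDLR was -0.40 without replicate 2 (adjusted p = 0.107).

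Other probe sets bear on how firmly these values stand. 20 members had 34 other probe sets, and for 29 of these the mean SW620 change had the same sign as that of the probe set used. For TRIB3, CBS and SLC7A11 the brightest of the others had mean SW620 changes of -2.29, -1.85 and -1.50, beside -2.07, -1.71 and -1.28 for the ones used. A dim probe set of ASNS (mean 3.73) was at -0.043 and fell in none.

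In SW480 the same genes did not fall together. Over the 6 knockdowns 12 of 210 results fell and 24 rose, where 7.32% of all results over all genes fell and 6.11% rose. Of the 35 members, 14 had no call, a count with no share of all genes beside it. With MAP2K1, 6 members rose and 0 fell, where 3.2% of all genes rose and 3.34% fell. The largest were ASNS (1.19 ± 0.31) and SLC7A11 (0.99 ± 0.25). ASNS lay between 9.95 and 11.40 (median 10.03) on the 12 SW480 control arrays and between 9.73 and 12.17 (median 11.57) with MAP2K1, so the groups overlap. SLC7A11 lay between 5.05 and 7.68 (median 7.34) in the controls, between 6.11 and 8.44 (median 8.29) with MAP2K1 and between 6.97 and 8.63 (median 8.54) with MAPK3. The MAP2K1 and MAPK3 arrays of replicate 1 are among the SW480 arrays with SW620 genes, and SLC7A11 is higher in SW620. Without them the MAPK3 change of SLC7A11 was 1.22, as large as before, its MAP2K1 change was 0.87, and ASNS with MAP2K1 was 0.97 and missed the threshold (adjusted p = 0.0583). With MAPK3, 4 rose and 0 fell (4.21% and 6.46% of all genes), among them SLC7A11 (1.23 ± 0.25). With CDK5, 4 rose and 0 fell (4.15% and 3.9%), 3 of them transporters: SLC7A5 (0.60), SLC38A2 (0.50) and SLC7A1 (0.35). With MAP2K2, 0 rose and 1, STC2, fell (-0.52 ± 0.16; 2.07% and 3.09%).

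HRAS and NGFR gave calls both ways in SW480. With HRAS, 7 rose and 4 fell, where 9.97% of all genes rose and 16.2% fell, so the share that fell lies under the background. The rises included the factors ATF4 (0.48 ± 0.12, adjusted p = 8.86e-04), ATF5 (0.50 ± 0.16) and DDIT3 (0.31 ± 0.11), and the falls the enzymes ASS1 (-0.92 ± 0.31), PSAT1 (-0.71 ± 0.16) and PHGDH (-0.46 ± 0.18) and the importer SLC7A11 (-0.72 ± 0.25). ATF4 lay between 10.64 and 11.70 (median 11.45) in the SW480 controls and between 10.91 and 12.18 (median 11.999) with HRAS, overlapping. ASS1 lay between 9.50 and 11.32 (median 9.62) in the controls and between 7.91 and 9.37 (median 9.14) with HRAS, below all controls. With NGFR, 7 fell and 3 rose (10.9% and 13.1% of all genes). CEBPG (-0.76 ± 0.16), STC2 (-0.81 ± 0.16) and SLC7A11 (-0.76 ± 0.25) fell furthest, and SESN2 (0.65 ± 0.14) rose most. The other probe set of CEBPG (mean 8.03) was at 0.70 with NGFR, so the fall of CEBPG depends on the probe set. MTHFD2 was the member called most often in SW480: it rose in 5 knockdowns, from 0.34 with NGFR to 0.71 ± 0.12 with MAP2K1. It lay between 10.09 and 11.40 (median 11.06) on the SW480 controls and between 10.78 and 12.19 (median 11.62) with MAP2K1, overlapping in range. With MAPK3 its change went from 0.55 to 0.36 without the arrays with SW620 genes. A dimmer probe set of MTHFD2 (mean 6.56) was at 0.70 with MAP2K1 and 0.29 with MAP2K2. It was at -0.090 with CDK5, -0.0014 with HRAS, 0.020 with MAPK3 and 0.11 with NGFR. The rises of MTHFD2 with CDK5, HRAS, MAPK3 and NGFR therefore depend on the probe set. Without replicate 1, whose HRAS hairpin code differs, the HRAS changes were -0.40 for PSAT1, -0.56 for ASS1 and 0.16 for DDIT3 (adjusted p = 0.192), and ATF5 was 0.31 without replicate 2 (adjusted p = 0.0681).

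Some SW480 calls lie near the threshold. With the replicate number as a block in place of the round, the counts called went from 4 to 2 with CDK5, from 4 to 2 with MAPK3 and from 1 to 0 with MAP2K2. The calls lost there were SLC7A5 (adjusted p = 0.0616) and SLC7A1 (adjusted p = 0.0675) with CDK5, DDIT3 (adjusted p = 0.0553) and PSPH (adjusted p = 0.0523) with MAPK3, and STC2 (adjusted p = 0.0646) with MAP2K2. PHGDH (adjusted p = 0.0548) and GARS1 (adjusted p = 0.0561) with HRAS, ALDH18A1 with MAP2K1 (adjusted p = 0.0597) and VLDLR with NGFR (adjusted p = 0.0516) were lost too. In SW620 the block ended 1 call, that of SLC1A5 with HRAS (adjusted p = 0.055).

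The difference between the lines was tested as such, SW620 minus SW480, for each knockdown. It passed for 23 to 29 of 35 members. With MAPK3, 28 were lower in SW620 and 0 higher, with 8.83% of all genes lower. With MAP2K1 the count was 27 (5.9%), with CDK5 26 (9.06%), and with HRAS and MAP2K2 23 each (8.69% and 5.91%), and 0 were higher in each. With NGFR, 27 were lower and 2, ATF5 and ALDH18A1, higher (13.3% and 10.5% of all genes). The other probe set of ALDH18A1 was at -0.34 with NGFR in SW620 and at -0.25 in SW480. Those of ATF5 were at 0.16, -0.13 and -0.17 in SW620 and at -0.099, -0.24 and -0.13 in SW480. Both exceptions therefore depend on the probe set. ASNS differed most with NGFR (-3.89 ± 0.44) and MAP2K1 (-3.48 ± 0.44), and DDIT4 with MAP2K1 (-3.71 ± 0.55). 19 members differed in all 6 knockdowns, and the share of all genes that did is not given here.

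The vector controls of the lines also differ in level. In SW620, 26 members were higher and 4 lower than in SW480 (with 23.2% of all genes higher and 22.1% lower). Of 35 members, 25 were higher in each of the 3 rounds, a count with no share of all genes beside it. DDIT4 was higher by 3.12 ± 0.34 (adjusted p = 3.17e-13), TRIB3 by 2.35 ± 0.20, SLC7A11 by 2.17 ± 0.22, AARS1 by 2.11 ± 0.22 and ASNS by 1.72 ± 0.27. ATF5 (-1.03 ± 0.14), SLC1A5 (-0.89 ± 0.25), SLC7A5 (-0.42 ± 0.17) and SLC1A4 (-0.24 ± 0.094) were lower. DDIT4 lay between 7.99 and 10.46 (median 8.13) on the SW480 control arrays, so the SW620 knockdown arrays, between 6.43 and 11.55, reach the SW480 control range for this gene. The line comparison and the knockdown changes of SW620 share the SW620 control arrays.

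**Figure D3:**
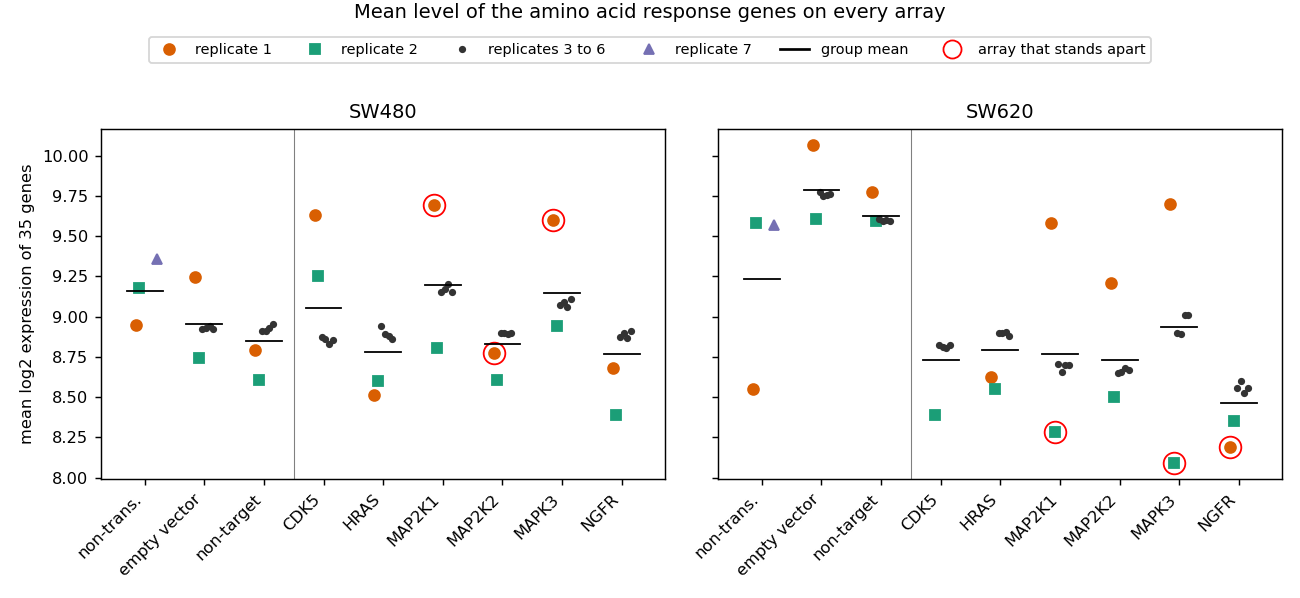
Mean log2 expression of the 35 genes on every array (vertical axis), by treatment, in SW480 (left) and SW620 (right); symbols give the replicate, black bars the group means and red circles the 6 arrays that stand apart. In SW620 the vector control arrays lie between 9.59 and 10.07, above all knockdown arrays but that of MAPK3 replicate 1 at 9.70, and the non-transduced arrays spread from 8.55 to 9.58.

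Each knockdown was also compared with the mean of the other 5 of its line, which uses no control arrays. With NGFR in SW620, 12 members were lower than with the other knockdowns and 0 higher (11 and 1 without the degraded arrays, of which NGFR replicate 1 is one), with 6.67% of all genes lower and 6.93% higher. They include ASNS (-1.09 ± 0.28), SLC7A5 (-0.92 ± 0.18), TRIB3 (-0.78 ± 0.21) and CEBPB (-0.73 ± 0.19). The NGFR transcript itself did not pass in this line. With MAPK3, 10 members were higher and 2 lower (8.7% and 8.84% of all genes): SLC7A11 (1.35 ± 0.22), CEBPB (0.999 ± 0.19) and VLDLR (0.70 ± 0.16) led the former, and SLC1A5 (-0.72 ± 0.26) and SLC7A5 (-0.60 ± 0.18) were the latter. With HRAS, 3 were higher and 0 lower (5.76% and 7.09%), all transcription factors: ATF4 (0.59 ± 0.11), ATF5 (0.51 ± 0.14) and NUPR1 (0.45 ± 0.10). With CDK5, SLC7A11 was lower (-0.94 ± 0.24) and the transporters SLC7A5 (0.73 ± 0.19) and SLC1A4 (0.41 ± 0.11) higher (2.9% and 1.41%). With MAP2K2 only SLC1A5 passed, as higher (0.91 ± 0.26), where 1.25% of all genes were higher and 2.08% lower, and with MAP2K1 0 members passed (2.4% and 1.22%).

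In SW480, 10 members were lower and 1 higher with NGFR (15.5% and 17% of all genes), led by SLC7A11 (-1.05 ± 0.22) and CEBPG (-0.89 ± 0.14). The CEBPG value is that of the probe set used, and its other probe set moved the opposite way against the vector controls. With HRAS, 6 were lower and 5 higher (18.6% and 13.5%), with ASNS lowest (-1.34 ± 0.28) and ATF5 (0.48 ± 0.14) and ATF4 (0.46 ± 0.10) highest. With MAP2K1, 9 were higher and 1, DDIT3, lower (3.27% and 2.09%). MAPK3 gave 3 higher and 0 lower (4.47% and 5.69%), CDK5 3 higher and 0 lower (6.69% and 3.72%), and MAP2K2 2 lower and 0 higher (1.54% and 1.75%). SLC7A11 was the most variable member between SW480 knockdowns, from -1.05 to 1.34.

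The SW620 values differ with the control they are set against. With all arrays, limma called 0 members between non-target hairpin and empty vector in either line, with 1 (SW480) and 4 (SW620) at an unadjusted p under 0.05 and 0.101% and 0.00506% of all genes called. Of the 35 members, 30 (SW480) and 31 (SW620) lay lower with the non-target hairpin, by a median of -0.094 and -0.15. With replicates 3 to 6 only, 7 members were lower and 4 higher in SW480 (12.3% and 4.73% of all genes), and 12 lower and 0 higher in SW620 (1.6% and 2.6%). Against non-transduced cells, the SW480 vector controls gave 0 calls (1 at an unadjusted p under 0.05, and 0% of all genes rose). In SW620, 14 members were higher in the vector controls and 0 lower, with 4.34% of all genes higher and 1.54% lower. DDIT4 (2.26 ± 0.62), CEBPB (1.60 ± 0.33), ASNS (1.60 ± 0.49) and TRIB3 (1.57 ± 0.36) led them. These values rest on 2 non-transduced arrays per line, those of replicates 1 and 2, since replicate 7 holds no other treatment. For the remaining non-transduced arrays the labels give both replicate 7 and replicate 4, and 7 was kept. As replicate 4 they would join the round of replicates 3 to 6, and the calls could differ. That fit was not run. In SW620 the mean of the 35 members was 9.57 on this array. On the replicate 4 arrays it was 9.75 with empty vector and 9.60 with the non-target hairpin. The SW620 non-transduced arrays differ widely. DDIT4 was at 8.52, 10.74 and 10.42 in replicates 1, 2 and 7, and ASNS at 8.48, 11.23 and 12.18. In both, replicate 1 is the lowest. Within replicate 1, 33 of 35 members were higher in the vector controls than in non-transduced cells (median 1.25), and within replicate 2 only 12 were (median -0.11). The shares of all genes within these replicates are not given here. Without replicate 1, 0 members were higher and 3 lower in SW620, where 6.33% of all genes were higher and 2.11% lower, and 8 were lower and 0 higher in SW480 (1.23% and 0.668% of all genes).

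Set against non-transduced cells in place of the vector controls, a comparison added after the values above were seen, few members passed in SW620. The counts of members that fell were 0 with CDK5 (0.597% of all genes), 1 with HRAS (2.79%), 1 with MAP2K1 (0.46%), 0 with MAP2K2 (0.273%), 4 with MAPK3 (4.15%) and 5 with NGFR (1.53%). With MAPK3, DDIT3 and VLDLR rose. The medians lay between -0.61 (NGFR) and -0.11 (MAPK3). ASNS fell with NGFR (-1.75 ± 0.52, adjusted p = 0.0335). ASS1 fell with HRAS (-2.04 ± 0.53), MAPK3 and NGFR, and SLC7A5 with MAPK3 and NGFR (-1.72 ± 0.33). DDIT4 was -1.38 ± 0.66 with NGFR (adjusted p = 0.211). In SW480 the counts were 3 with HRAS (8.29%), where ALDH18A1 rose, 5 with NGFR (3.87%) and 0 with the others. These counts too rest on the non-transduced arrays of replicates 1 and 2, and so on the number 7 kept for the remaining ones. Whether transduction with a vector raised these genes in SW620 or replicate 1 of the non-transduced cells was low for another reason was not tested.

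The direction in SW620 was seen in each round, with different sizes. Taken within a round, 18 to 31 of 35 members lay below the vector controls in every round: 31 with NGFR, 31 with CDK5 (2 rounds), 29 with HRAS, 28 with MAP2K2, 23 with MAP2K1 and 18 with MAPK3. No share of all genes is given beside these counts or the counts by member below. The median change of all genes within a round lay between -0.022 (MAPK3, replicates 3 to 6) and 0.12 (NGFR, replicate 1). With NGFR the median change of the members was -1.73 in replicate 1, the array of degraded RNA, -0.97 in replicate 2 and -0.96 in replicates 3 to 6. With HRAS the values were -1.23, -0.87 and -0.64, where replicate 1 has hairpin code B3 and replicates 3 to 6 have A1. With MAP2K2 they were -0.66, -0.88 and -0.89, and with CDK5 -0.99 and -0.82 in replicates 2 and 3 to 6. The exceptions are MAP2K1 and MAPK3, whose replicate 1 arrays lay close to the controls with medians of -0.27 and -0.11. Their replicate 2 arrays, of degraded RNA, gave -1.11 and -1.04, and replicates 3 to 6 gave -0.84 and -0.58. DDIT4 shows this most: with MAPK3 it was 0.033 in replicate 1, -5.80 in replicate 2 and -2.41 in replicates 3 to 6. Member by member, CEBPB, CEBPG, TRIB3, SESN2, STC2, PHGDH, PSAT1, ASNS, CBS, ASS1, SLC1A4, SLC38A2 and WARS1 lay below the controls in all 17 combinations of knockdown and round in SW620. In SW480 the median changed sign between rounds with CDK5 (0.50, 0.65 and -0.10 in the same order) and with HRAS (-0.36, -0.078 and 0.028). It was above 0 in every round with MAP2K1 (0.53, 0.11 and 0.25) and MAPK3 (0.50, 0.21 and 0.11). It was below 0 in every round with NGFR (-0.26, -0.26 and -0.075) and MAP2K2 (-0.18, -0.0062 and -0.0066). SESN2 and MTHFD2, by the probe sets used, lay below the controls in 0 of 18 combinations.

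**Figure D4:**
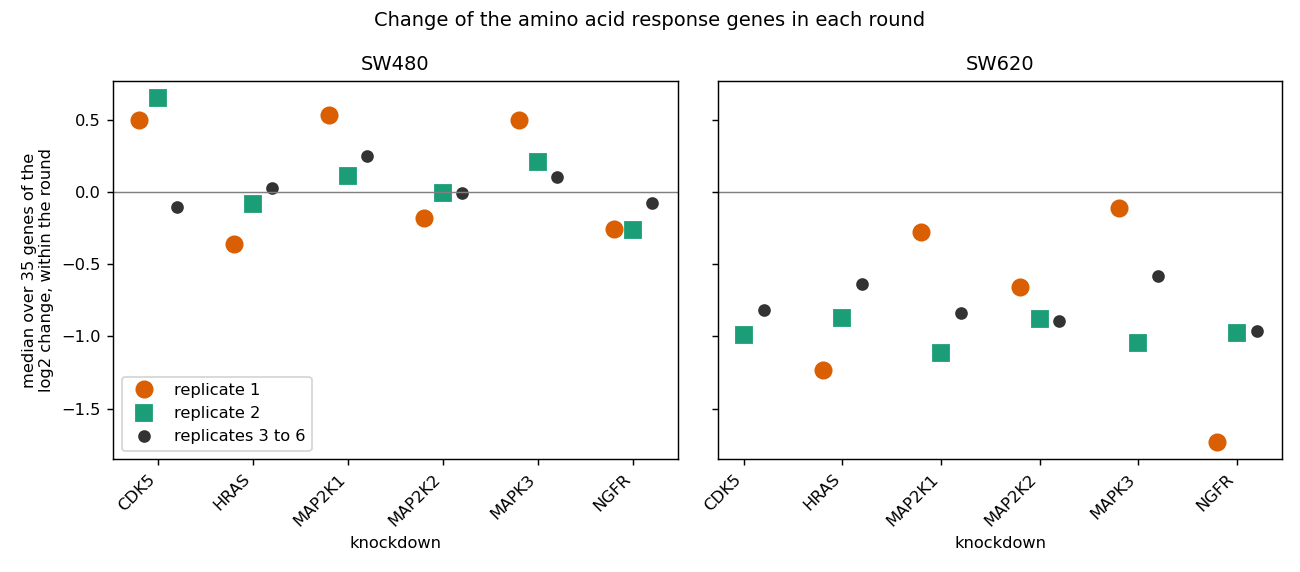
Median over the 35 genes of the log2 change from the vector controls of the same line and round (vertical axis), for each knockdown in SW480 (left) and SW620 (right); symbols give replicate 1, replicate 2 and replicates 3 to 6, and the grey line marks 0. In SW620 every point lies below 0, from -1.73 to -0.11, and in SW480 points lie on both sides.

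Replicates 3 to 6 are much alike, least so with HRAS in SW480 (median SD of a member 0.12, lowest correlation 0.982). Over the groups the median SD of a member across these 4 arrays was 0.058, against 0.485 across rounds, so they add less than 4 samples' worth of information on the spread between rounds. With these arrays averaged to 1 value per round, an alternative chosen after seeing how close they are, the counts that fell in SW620 were 21 with NGFR (1.89% of all genes), 18 with HRAS (2.6%), 8 with MAPK3 (2.87%), 3 with MAP2K2 (0.101%), 1 with CDK5 (0.202%) and 0 with MAP2K1 (0.0708%). At an unadjusted p under 0.05, 22 to 29 of 35 members differed in each, from 62.9% to 82.9%, where 9.36% to 23.6% of all genes did. In SW480 1 member fell with HRAS (4.46% of all genes), and 0 in the other knockdowns. ASNS then fell with NGFR (-3.23 ± 0.60, adjusted p = 0.00394), DDIT4 with NGFR (-4.03 ± 0.76, adjusted p = 0.00405) and STC2 and SLC1A4 in 4 knockdowns each. Without a model, all knockdown arrays of SW620 lay below all 12 control arrays for 21 members with CDK5 (3.19% of all genes), 18 with NGFR (1.31%), 16 with MAP2K2 (0.839%), 13 with HRAS (2.74%), 3 with MAP2K1 (0.551%) and 3 with MAPK3 (1.21%). In SW480 the counts were 4 with HRAS (1.77%), 2 with NGFR (1.23%) and 0 with the others. CDK5 has no replicate 1 array in SW620, which bears on its count.

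Other genes of the pathway were read from 5 lists beside the members. Of 16 further genes linked to ATF4 that were measured, from 7 to 11 fell in a SW620 knockdown and 0 rose. Over the 6 knockdowns that is 60 falls in 96 results, or 62.5%, where 13.6% of all results over all genes fell and 12% rose in this line. They include ATF3, a stress factor of the ATF family (-1.95 with CDK5 and -1.76 with MAPK3), GDF15, a stress hormone (-2.48 with NGFR and -2.52 with MAPK3), and PCK2, the mitochondrial PEP carboxykinase (-1.34 with MAP2K2). In SW480 they gave 8 falls and 9 rises (8.33% and 9.38%, against 7.32% and 6.11% over all genes). Of 13 other cytosolic tRNA synthetases, from 3 to 8 fell, 38 falls and 2 rises in 78 results (48.7% and 2.56%), with YARS1 (-0.90 with NGFR), LARS1 (-0.74 with HRAS) and EPRS1 (-0.69 with MAP2K2) among those named. KARS1, HARS1 and RARS1, chosen after their values were seen, lay between -0.12 and 0.30. The other arms of the unfolded protein response moved in part. Of 114 results for 19 genes measured in SW620, 45 fell and 14 rose (39.5% and 12.3%). ERN1, the IRE1 sensor, fell, down to -2.34 with NGFR, and XBP1, its target, down to -1.45. The chaperone HSPA5 (BiP), also named after its values were seen, lay between -0.071 and 0.016 over the 6, and the folding factor CRELD2 between 0.55 and 0.72. The eIF2 kinases and the eIF2 cycle (16 genes) gave 19 falls and 21 rises in 96 results (19.8% and 21.9%). PPP1R15A (GADD34), the phosphatase subunit that reverses eIF2 phosphorylation and itself a stress-induced gene, was at -1.21 with MAP2K1, -0.97 with CDK5 and 0.011 with HRAS. The GCN2 gene EIF2AK4 was at -1.05 with MAPK3, -1.17 with MAPK3 in SW480, where 0 members fell, and in SW620 between -0.23 and -0.052 with the others. The mTORC1 list (18 genes) gave 19 falls and 16 rises in 108 results (17.6% and 14.8%), shares near those of all genes, with DEPTOR, an mTOR inhibitor, at -1.16 with CDK5 and MTOR at 0.57 with MAP2K1.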

How the data were processed

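Expression was measured on 101 arrays with 54675 probe sets. The values are log2 expression as deposited by the authors, who processed the arrays with RMA, per the submitters' processing notes. Their annotation and software versions are not given in the sources used here. Of the probe sets, 41097 name 1 gene, 1801 several and 11777 none, by the platform's annotation, and 41043 symbols were updated by identifier. The probe set with the highest mean stood for each of 19775 genes. Groups came from the sample labels.

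A linear model with a term for each group and for each of the 4 label series (replicate 1, replicate 2, replicates 3 to 6, replicate 7) was fitted to all arrays with limma 3.58.1 in R 4.3.3, with Benjamini-Hochberg adjustment over all genes and a threshold of 0.05. The fit was also run on data simulated from its own coefficients. The simulated noise was independent between arrays, so that run cannot show the effect of replicates 3 to 6 being so alike. Same-numbered arrays deviated together from their group means in all 142 pairs of groups (r from 0.272 to 0.914, median 0.807), so the replicate number was also used as a block. After the term for the label series the median was -0.127.

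All members are named. Values by array are given for up to 3 members of each role, those called in the most knockdown comparisons, and other pathway genes are named by smallest p unless stated. The members, lists and tests were chosen with earlier results of these data known. Alternatives were other controls, probe set rules, filters, normalisation, groups of replicates and omitted arrays. The number of arrays limits the precision. Targets of the series other than the 6 here are not analysed here.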

Additional observations from a re-analysis of the deposited data

Results flagged for a closer look

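The mean log2 level of the 35 members placed 1 array far from the others in 6 of 16 groups of 4 to 10 arrays, by the gap to the nearest array over the whole range of the group. Chance marks about 1 group in 20 where arrays are independent. That share does not carry over here, since replicates 3 to 6 of a group nearly coincide and same-numbered arrays deviate together. In SW620 these were replicate 2 of the CDK5 knockdown (ratio 0.944, with a mean of 8.39 against 8.80 for the nearest array) and replicate 1 of the non-target hairpin (0.928, 9.78 against 9.61), of the empty vector (0.628, 10.07 against 9.78), of MAP2K2 (0.738, 9.21 against 8.68) and of MAP2K1 (0.675, 9.58 against 8.70). In SW480 it was replicate 1 of MAPK3 (0.746, 9.60 against 9.11), which is among the arrays with SW620 genes. In 5 of the 6 groups the array is that of replicate 1 and is the highest.

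The difference between the lines passed limma's test of the difference for 26 members with CDK5, 23 with HRAS, 27 with MAP2K1, 23 with MAP2K2, 28 with MAPK3 and 29 with NGFR.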

How the results depend on the processing

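Of 202 called changes of a member, the number that stayed past the threshold with its sign ranged over the alternatives from 200 (replicates 3 to 6 only, or without the degraded arrays) to 10 (replicates 1 and 2 only), and 9 of 166 in SW620 and 0 of 36 in SW480 stayed under all 20. The SW620 knockdown counts moved by over 1.5 times only with 1 value per round and with replicates 1 and 2 only. The precision is set by few independent rounds and by replicates 3 to 6 being so alike, and low signal limits dim members such as ALDH1L2. The cause of each move was not tested.

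Some counts in this section stand without the share of all genes called, which also changed with the setting. Knockdowns are in the order CDK5, HRAS, MAP2K1, MAP2K2, MAPK3, NGFR, and the SW480 counts in the report are 4, 11, 6, 1, 4 and 10. Without a term for the label series they were 0, 1, 1, 0, 0 and 2, with 76 calls between lines (156 in the report), 15 between a knockdown and the other 5 (71) and 0 for vector controls against non-transduced SW620 (14). With arrays averaged in pairs they were 0, 3, 1, 0, 2 and 4, with 69, 19 and 5. With replicates 3 to 6 only they were 20, 22, 29, 17, 20 and 26. The shares of all genes called there were 35.5%, 49%, 36.6%, 33.4%, 37.2% and 48.7%. That setting also gave 289 calls between a knockdown and the other 5. Between non-target hairpin and empty vector it gave 11 (SW480) and 12 (SW620), with 17% and 4.2% of all genes. With 1 value per round, added after seeing the data, the SW480 counts were 0, 1, 0, 0, 0 and 0. The SW620 counts were 1 for CDK5, 18 for HRAS, 0 for MAP2K1, 3 for MAP2K2 and 8 for MAPK3, and the other 3 totals were 4, 9 and 0. With replicates 1 and 2 only, also added, SW480 counts were all 0, SW620 counts were 0 but for HRAS (1) and NGFR (9), the totals were 0, 4 and 0, and the lines' vector controls differed in 15 members (30). There SLC7A11 with MAP2K1 (0.033) and CTH with MAP2K2 (0.12) in SW620 and ATF5 with NGFR in SW480 (0.29) changed sign.

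In SW480, empty vector alone gave 1, 4, 3, 0 and 1 for the first 5 knockdowns, and non-target hairpin alone 2 for CDK5 and 7 for HRAS. The mean of all probe sets gave 1 for CDK5, 2 for MAPK3 and 4 for NGFR, omission of dim genes 3 for MAP2K2, and a second quantile normalisation 2 for MAP2K2. Without the degraded SW620 arrays the SW480 counts were 7 for CDK5, 12 for MAP2K1, 3 for MAP2K2 and 8 for MAPK3. Of all genes, 12.9%, 11.1%, 10.3% and 16% were called there. Without the arrays with genes of the other line MAP2K2 had 0. Without all 6 (added after seeing the data) CDK5 had 7, HRAS 17, MAP2K2 2, MAPK3 7 and NGFR 16. The shares of all genes called without all 6 were 15.8%, 36.8%, 7.79%, 16.6% and 33.7% in that order.

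With the replicate block, CDK5 had 2, MAP2K2 0 and MAPK3 2 in SW480, 192 of the 202 changes stayed past the threshold, and the pairing changed no other knockdown call than the 10 given in the report. Leaving out 1 replicate number in turn, the SW480 counts ranged from 2 to 8, 5 to 14, 2 to 15, 0 to 5, 2 to 10 and 5 to 17. Calls between a knockdown and the other 5 ranged from 41 to 122, and vector controls against non-transduced from 0 to 8 in SW480 and from 3 to 27 in SW620, with the extremes without replicate 1 or 2.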
